A study of Mus musculus with 12 samples.

Results

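The 6 teratoma libraries titled Dnmt3L_K238R_1 to 3 and Dnmt3L_WT_1 to 3, out of 12 in the series, were compared across all genes. They were taken by the titles and the treatment label, with 3 libraries per group and 1 library per tumor. All tumors grew from R1 mouse ES cells, an XY line, that carried a lentiviral construct driven by the CAG promoter and were kept as puromycin-selected pools. WT cells received Dnmt3L, K238R cells received Dnmt3L with the lysine of that label replaced by arginine, K412R cells received the same kind of replacement at another lysine, and ET cells received the empty vector. For each tumor, 5000000 cells were injected under the skin of an 8-week-old male NOD-PrkdcEM1 mouse, an immunodeficient host, and the tumor was taken at day 21. The study asked whether blocking acetylation at this lysine changes what Dnmt3L does to the differentiation of ES cells. The poly(A) RNA of a teratoma comes from many graft tissues together with host vessels and blood cells, and host and graft are both mouse, so their reads were not separated.

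The 6 libraries held between 17529003 and 18546100 counts, with 18405 of 38986 listed genes tested, and Gm26917, a single RNA, made up 7.47% to 11.8% of them. WT replicate 1 stood apart from the other WT libraries. Over the 500 genes with the largest variance, its root mean square difference in log2 CPM was 2.28 from the other WT libraries and 1.65 from ET replicate 2, its nearest library, whereas WT replicates 2 and 3 were 1.44 apart. Each K238R-labelled library was nearest to an ET library, at 1.82, 1.73 and 2.11. Values without WT replicate 1 are therefore given beside several of the results that rest on it.

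Dnmt3L is a member of the DNA methyltransferase 3 family that has lost the catalytic activity of its relatives. It binds Dnmt3a and Dnmt3b, stimulates de novo methylation of CpG sites and reads the unmodified tail of histone H3. It is abundant in germ cells and in ES cells and falls silent in most differentiated tissues. In the germ line it is needed for maternal imprints and, in male germ cells, for silencing of retrotransposons. The codon of the K238R label lies in exon 9 of 13 of the reference transcript Dnmt3l-201, whose reading frame holds 421 codons. On GRCm38 the codon is at chr10:78054977-78054979, plus strand, while the deposited counts were made on GRCm39. The reference coding sequence around it is shown because the mutation in the label concerns this codon, in capitals, which encodes lysine. The reads themselves were not used here, so the base carried by the transcripts could not be read.
Dnmt3l lysine codon: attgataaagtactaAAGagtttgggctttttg

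Dnmt3l was read first, since the construct should raise it. The WT libraries held 2941, 3643 and 3581 Dnmt3l counts and the K238R-labelled libraries 35, 20 and 10, or, as counts scaled to the same library total (CPM), 164, 207 and 213 CPM against 1.85, 1.12 and 0.526 CPM. Every WT library was far above every K238R-labelled library. The mean was 194 ± 27.0 CPM (SD, n = 3) in WT and 1.17 ± 0.67 CPM in the K238R-labelled libraries. Dnmt3l fell by 7.37 on the log2 scale (standard error 0.68, adjusted p = 0.00251, edgeR's quasi-likelihood test), a 166-fold difference. In the 12 fits that each omitted 1 library, the value stayed between -7.88 and -7.02 and the adjusted p did not exceed 0.042. ET stood at 3.52 ± 3.73 CPM and K412R at 34.7 ± 8.52 CPM, so the K238R-labelled level did not exceed that of the empty vector. The Dnmt3l transcript went against the label, and the 3 tumors are called the K238R-labelled libraries throughout. Directions below are between tumors with and without raised Dnmt3l transcript as well as between labels.

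**Figure D1:**
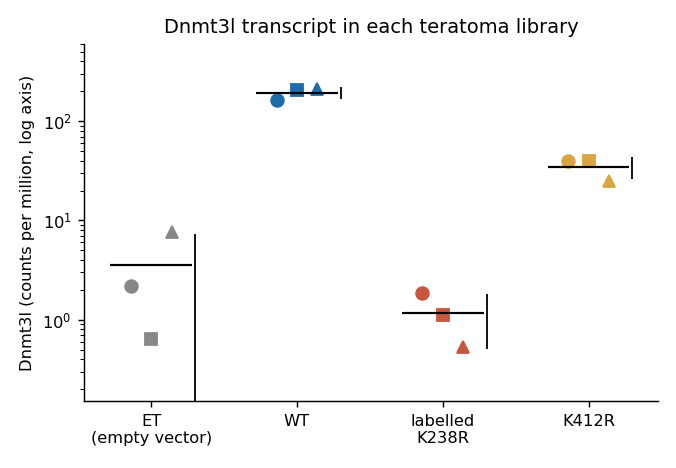
Dnmt3l in CPM on a log axis for the 12 libraries, with circles, squares and triangles for replicates 1, 2 and 3, horizontal lines for group means and vertical lines for 1 SD. The K238R-labelled libraries lie between 0.526 and 1.85 CPM, while WT lies between 164 and 213 CPM. The lower end of the ET bar falls below 0 and is cut off by the axis.

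None of the other DNA methyltransferase genes passed the adjusted threshold. Dnmt3a, a de novo methyltransferase, stood at 221 ± 21.1 CPM in WT and 206 ± 12.5 CPM in the K238R-labelled libraries (log2 fold change -0.10, adjusted p = 0.575). Dnmt1, which copies methylation at replication, differed by 0.27 on the log2 scale (adjusted p = 0.345). Dnmt3b, the other de novo enzyme and abundant in pluripotent cells, averaged 15.2 ± 16.6 CPM in WT and 17.9 ± 6.26 CPM in the K238R-labelled libraries (log2 fold change 0.23, adjusted p = 0.86), and its log2 fold change moved to 1.66 (adjusted p = 0.10) without WT replicate 1. Of the 31 genes listed for DNA methylation, 30 were tested, none reached 2-fold with an unadjusted p under 0.05 (3 were 2-fold higher without WT replicate 1), and the median log2 fold change was 0.13 against 0.0008 over all genes tested.

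In all, 41 genes, Dnmt3l among them, passed the adjusted threshold, and their number depended on which libraries were fitted. At an adjusted p under 0.05, 22 genes (0.120% of those tested) rose and 19 (0.103%) fell in the K238R-labelled libraries. By the study's own criterion, at least 2-fold with an unadjusted p under 0.05, 308 genes (1.67%) were higher and 654 (3.55%) were lower. These shares are the background for the 2-fold counts of every gene list below. Of all genes tested, 17.5% had an unadjusted p under 0.05. All 41 adjusted calls were also called by DESeq2, which called 786 genes in all. When 1 library was left out, the adjusted calls numbered between 2 and 812. They came to 2, 12 and 3 without replicates 1, 2 and 3 of the K238R-labelled libraries, to 57, 4 and 2 without WT replicates 1, 2 and 3, to 25, 812 and 125 without ET replicates 1, 2 and 3, and to 15, 20 and 9 without K412R replicates 1, 2 and 3. Only Dnmt3l and Postn were called in all 12 of these fits. Without WT replicate 1, 22 of the 41 genes were still called, and the 2-fold criterion gave 567 genes higher and 821 lower.

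**Figure D2:**
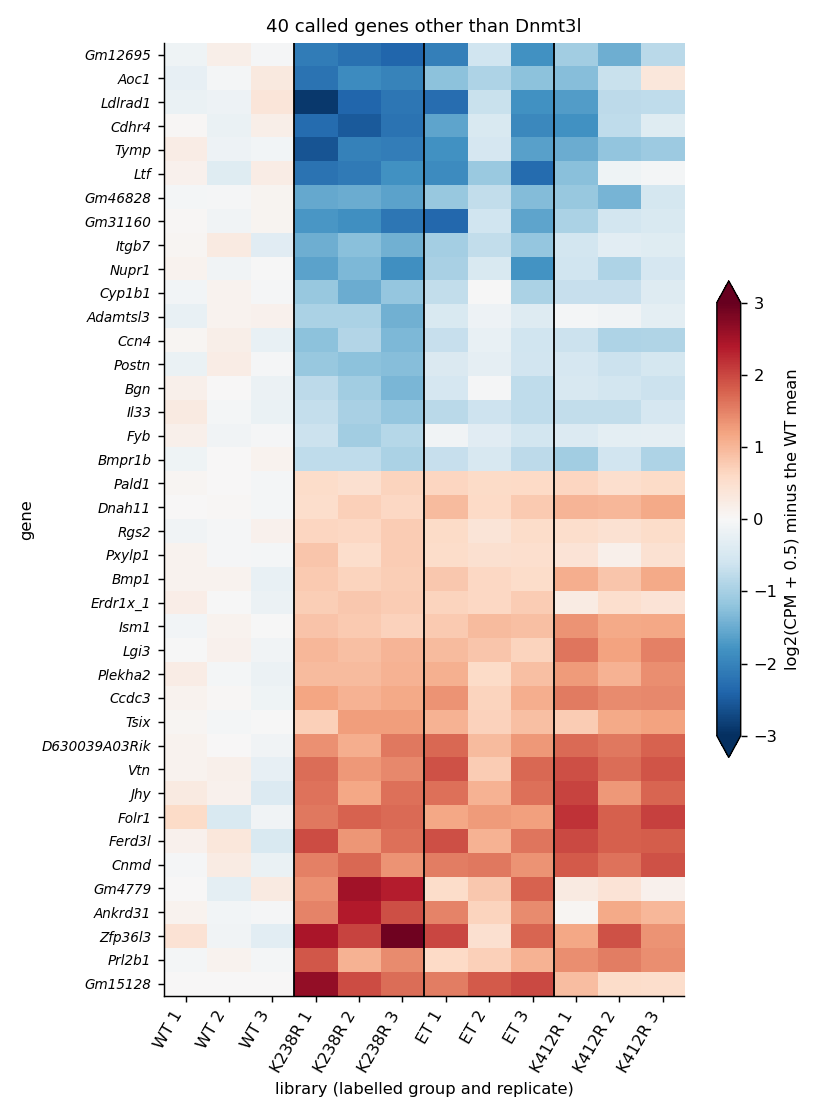
Rows are the 40 called genes other than Dnmt3l and columns the 12 libraries, with color for log2(CPM + 0.5) minus the mean of the WT libraries. The 18 genes in the upper rows are lower and the 22 in the lower rows are higher in each of the 3 K238R-labelled libraries than the WT mean, while ET and K412R are shown for their levels.

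Postn encodes periostin, a matrix protein of fibroblasts and developing bone. It stood at 231, 309 and 255 CPM in WT and at 118, 112 and 109 CPM in the K238R-labelled libraries. The groups did not overlap, and the 3 K238R-labelled values were close to each other. Postn fell by 1.23 on the log2 scale (standard error 0.12, adjusted p = 0.00251), and its log2 fold change stayed between -1.32 and -1.10 with any library left out. Bgn, the proteoglycan biglycan, stood at 254, 230 and 202 CPM in WT against 131, 110 and 87.1 CPM, and fell by 1.06 (standard error 0.19, adjusted p = 0.0495). Ccn4, a secreted matricellular protein induced by Wnt signaling, stood at 11.1, 12.0 and 8.94 CPM against 4.24, 5.54 and 3.84 CPM and fell by 1.23 (adjusted p = 0.0432). Both kept their direction and a difference of at least 0.92 with any library left out, although each was called in 2 of the 12 fits. Adamtsl3, a matrix protein related to ADAMTS proteases, fell by 1.27 (adjusted p = 0.0495), and Cyp1b1, a cytochrome P450 enzyme of steroid and retinoid metabolism, fell by 1.29 (adjusted p = 0.0432). In bulk tissue, fewer cells of a type and less RNA per cell cannot be told apart.

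Of the other genes that fell, Ldlrad1 stood at 7.90, 8.16 and 11.8 CPM in WT and at 0.795, 1.34 and 1.63 CPM in the K238R-labelled libraries, and fell by 2.88 on the log2 scale (standard error 0.49, adjusted p = 0.0432). Cdhr4, a cadherin-related gene, stood at 7.4, 6.24 and 8.16 CPM against 1.06, 0.839 and 1.16 CPM and fell by 2.82 (adjusted p = 0.0495). Ltf, which encodes the secreted iron-binding protein lactoferrin, fell by 2.33 (9.64 ± 2.09 against 1.92 ± 0.35 CPM, adjusted p = 0.0495), and Aoc1, a diamine oxidase of gut epithelium, fell by 3.18 (adjusted p = 0.0432). Tymp, thymidine phosphorylase, fell by 2.80 from 5.41 ± 0.82 to 0.774 ± 0.259 CPM (adjusted p = 0.0354). Il33, an alarmin cytokine of epithelial and stromal cells, fell by 0.99, from 22.1, 17.5 and 15.8 CPM to 11.0, 9.0 and 7.95 CPM, Itgb7, a leukocyte integrin chain, by 1.69, and Fyb, an adaptor of T cells and myeloid cells, by 0.89. Nupr1, a stress-induced chromatin protein, fell by 1.67, and Bmpr1b, a receptor for bone morphogenetic proteins, by 0.85. The 3 others, Gm12695, Gm31160 and Gm46828, carry only predicted-gene names and fell by 3.32, 1.95 and 2.11. None of the genes in this paragraph was called in more than 5 of the 12 fits that left out a library.

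Among the genes that rose, Cnmd, Lgi3 and Gm15128 held their call in 9 of these 12 fits, Rgs2 and Ccdc3 in 8, Pald1 and D630039A03Rik in 7 and Folr1, Erdr1x_1 and Prl2b1 in 6. Cnmd encodes chondromodulin, a cartilage glycoprotein that inhibits vessel growth. It stood at 0.667, 0.907 and 0.536 CPM in WT and at 2.91, 3.41 and 2.53 CPM in the K238R-labelled libraries, a rise of 2.06 on the log2 scale (standard error 0.26, adjusted p = 0.0153). Lgi3, a secreted neuronal protein, stood at 46.1, 51.0 and 43.3 CPM against 93.1, 87.2 and 95.5 CPM, a rise of 0.97 (standard error 0.12, adjusted p = 0.0153). Both groups were tight and did not overlap in either gene. The wider list of cartilage and bone genes had a median of -0.19 over 26 tested genes, with 18 below 0. Of these 26 genes, 1 (3.85%) was 2-fold higher and 4 (15.4%) were lower, against 1.67% and 3.55% of all genes tested. That median stayed between -0.40 and -0.08 with any library left out. Folr1, a folate receptor abundant in choroid plexus, rose by 1.76 (3.42 ± 1.47 against 11.6 ± 0.87 CPM, adjusted p = 0.0219). Vtn, the adhesion protein vitronectin, stood at 67.4, 70.0 and 52.9 CPM against 202, 155 and 173 CPM and rose by 1.48 (standard error 0.24, adjusted p = 0.0432). Ferd3l, a basic helix-loop-helix factor of the floor plate, rose by 1.80 (adjusted p = 0.0432).

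Bmp1, the protease that processes procollagens, rose by 0.73 (134 ± 16.5 against 222 ± 8.55 CPM, adjusted p = 0.0432), and Rgs2, which dampens signaling through G proteins, rose by 0.68 (49.0 ± 4.01 against 78.6 ± 4.35 CPM, adjusted p = 0.0155). Ccdc3, a secreted protein gene, rose by 1.12, Plekha2 by 0.98, Ism1, the secreted factor isthmin, by 0.85, Pxylp1, a phosphatase of proteoglycan synthesis, by 0.72 and Pald1, a phosphatase-like gene, by 0.58. Jhy and D630039A03Rik rose by 1.5 and 1.45. Erdr1x_1 rose by 0.77, but it belongs to a set of near-identical copies among which reads can be divided differently. Tsix, the antisense RNA of the X-inactivation regulator Xist, rose by 1.18 from 4.67, 4.25 and 4.41 CPM to 7.63, 11.3 and 11.2 CPM (adjusted p = 0.0432). Because the strand setting of the counting was not given in the sources used here, reads of Tsix and Xist may not be separated, and Xist itself was at or below 1.32 CPM in the 6 libraries.

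Apart from Dnah11, given with the motile cilium genes below, the other called rises were in germ cell and placental genes and in genes on the X chromosome. Ankrd31, which is needed for meiotic recombination, stood at 0.834, 0.680 and 0.715 CPM in WT and at 2.97, 5.98 and 4.26 CPM in the K238R-labelled libraries, a rise of 2.55 (standard error 0.43, adjusted p = 0.0432). Zfp36l3, an X-linked RNA-binding protein of the rodent placenta and yolk sac, stood at 1.06, 0.567 and 0.417 CPM against 5.77, 4.19 and 8.21 CPM, a rise of 3.14 (standard error 0.51, adjusted p = 0.0432). The X-linked predicted gene Gm4779 rose by 2.45, from 1.61, 1.19 and 2.03 CPM to 4.87, 11.4 and 10.1 CPM. Gm15128, also X-linked, had 0 counts in the 3 WT libraries and 96 in the K238R-labelled libraries, so it was at least 31.0-fold higher against a floor of 3 counts over the WT group. The placental prolactin gene Prl2b1 had 1 count in WT and 53 in the K238R-labelled libraries, a ratio of 51.4 with a 95% exact binomial interval of 8.83 to 2066 that covers counting error only.

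The promoters of 4 genes are shown as examples because the gene groups below differ in CpG content, the substrate of the methyltransferases that Dnmt3L assists. Sycp1 and Mov10l1 are germ cell genes that met the 2-fold criterion, Zfp36l3 is a called placental gene, and Postn is the lower gene, besides Dnmt3l, called in all 12 fits. Each run is the 250 bases before the start listed farthest upstream by RefSeq on GRCm38.p6, read 5′ to 3′ on the strand of the gene, with CpG sites in capitals. Sycp1 lies at chr3:102936101-102936350 on the minus strand, Mov10l1 at chr15:88982744-88982993 on the plus strand, Zfp36l3 at chrX:53776395-53776644 on the minus strand and Postn at chr3:54359017-54359266 on the plus strand. They hold 17, 19, 6 and 3 CpG sites.
Sycp1: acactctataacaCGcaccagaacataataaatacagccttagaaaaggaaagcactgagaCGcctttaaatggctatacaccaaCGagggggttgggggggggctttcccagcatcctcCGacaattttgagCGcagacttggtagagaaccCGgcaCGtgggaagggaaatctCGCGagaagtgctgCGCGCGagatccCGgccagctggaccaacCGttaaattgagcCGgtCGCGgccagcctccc
Mov10l1: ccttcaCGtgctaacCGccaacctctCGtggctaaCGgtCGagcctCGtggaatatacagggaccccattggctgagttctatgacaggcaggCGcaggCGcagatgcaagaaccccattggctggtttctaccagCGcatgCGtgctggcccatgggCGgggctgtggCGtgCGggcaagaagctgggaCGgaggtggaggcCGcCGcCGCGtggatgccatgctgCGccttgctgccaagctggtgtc
Zfp36l3: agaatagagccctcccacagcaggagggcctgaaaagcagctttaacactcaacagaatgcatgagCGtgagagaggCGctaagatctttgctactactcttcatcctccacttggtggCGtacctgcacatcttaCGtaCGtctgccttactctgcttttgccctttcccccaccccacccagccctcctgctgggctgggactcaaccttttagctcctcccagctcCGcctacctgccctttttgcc
Postn: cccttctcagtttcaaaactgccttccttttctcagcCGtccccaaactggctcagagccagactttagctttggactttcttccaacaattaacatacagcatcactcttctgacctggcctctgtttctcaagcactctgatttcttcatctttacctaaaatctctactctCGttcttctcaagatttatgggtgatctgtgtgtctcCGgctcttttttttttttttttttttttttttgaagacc

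Over windows of 300 bases around the start, reaching 250 before it and 50 after it, the 13746 tested genes with a listed promoter held a median of 19 CpG sites. The 219 of 308 genes higher by the 2-fold criterion that had a promoter held a median of 9 CpG sites, and the 483 of 654 lower genes a median of 6. Within the higher genes, the groups differed. Of 29 members of the germ cell, meiosis and piRNA lists that were 2-fold higher, the 21 with a promoter held a median of 17. Of the 50 other tested members of these lists, the 41 with a promoter held a median of 18. Of 13 trophoblast genes that were 2-fold higher, the 9 with a promoter held a median of 3, with an upper quartile of 5. In the same window the 4 genes shown above, Sycp1, Mov10l1, Zfp36l3 and Postn, held 21, 20, 9 and 4. Zfp36l3 thus held more CpG sites than most of these trophoblast promoters. The E-box CACGTG, which reads the same on both strands, was present in 8 of the 21 germ cell promoters (38.1%), in 11 of the 41 other germ cell promoters (26.8%), in none of the 9 trophoblast promoters and in 9.41% of all promoters of the same length. The E2F motif TTCCCGCC, searched on both strands, was present in 2 of the 21 (9.52%), 4 of the 41 (9.76%) and 3.83% of all promoters. These counts describe letters in a window, and methylation was not measured here.

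Germ cell genes that passed the filter on low counts were higher as a group. Many genes of this kind are held silent in somatic cells by methylation of CpG-rich promoters, which is given as background and not as a cause. Of 32 genes listed for primordial germ cells, 19 were tested, 12 of them were 2-fold higher and none 2-fold lower, against 1.67% and 3.55% of all genes tested, and their median log2 fold change was 1.28. It stayed between 1.07 and 1.60 with any library left out. None passed the adjusted threshold. Ddx4, the germ cell RNA helicase Vasa, stood at 2.78, 3.23 and 1.67 CPM in WT and at 5.72, 7.72 and 5.32 CPM in the K238R-labelled libraries (log2 fold change 1.28, adjusted p = 0.0704). Sohlh2, a transcription factor of early germ cell differentiation, stood at 8.73, 2.72 and 4.59 CPM against 28.1, 29.6 and 34.1 CPM (2.51, adjusted p = 0.107). Mael, which acts in piRNA silencing of transposons, stood at 8.67, 10.2 and 7.45 CPM against 13.7, 22.8 and 22.7 CPM (1.17, adjusted p = 0.0971). In each of these genes the groups did not overlap. The genes were picked with p-values or earlier results of these data known, and the share over all genes tested was not counted. The 13 listed genes that were not tested, among them Nanos2 and Sohlh1, did not pass the filter on low counts. A gene near 0 in WT could pass that filter only through other groups. Such a gene had little room to be 2-fold lower, so the counts describe the genes that passed.

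Genes of meiosis and of the piRNA pathway had positive medians too. Of 48 meiosis genes, 38 were tested, 1 rose at the adjusted threshold (Ankrd31, above), 10 were 2-fold higher and none lower, and the median was 0.61, falling to 0.39 without replicate 2 of the K238R-labelled libraries. Sycp1, a component of the synaptonemal complex that holds paired chromosomes together, stood at 1.06, 0.567 and 0.417 CPM in WT and at 3.92, 5.76 and 5.58 CPM (2.88, standard error 0.55, adjusted p = 0.066). Syce1, another part of that complex, differed by 1.94 (adjusted p = 0.068) and Tex11, an X-linked gene of crossover formation, by 1.86 (adjusted p = 0.066). Stra8, which starts meiosis on retinoic acid signaling, stood at 1.17, 0.0567 and 0.0596 CPM against 4.87, 5.70 and 2.84 CPM (3.34, adjusted p = 0.115). Of 25 piRNA genes tested, 9 were 2-fold higher and none lower, with a median of 0.75. Mov10l1, a helicase that feeds RNA into piRNA production, stood at 1.22, 0.454 and 0.655 CPM against 3.87, 9.28 and 7.48 CPM (3.13, adjusted p = 0.068), and Rnf17 and Gpat2, of the same pathway, differed by 1.95 and 1.97. All of these germ cell genes were below 35 CPM. Stra8, Sycp1 and Mov10l1 were near or below 1 CPM in each WT library, so the same limit of the filter holds here.

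**Figure D3:**
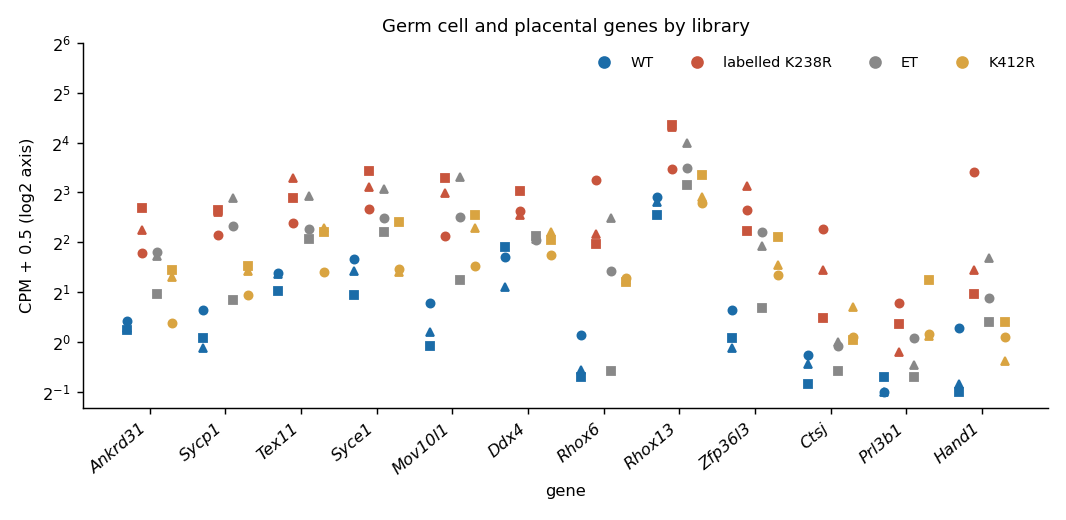
CPM + 0.5 on a log2 axis for 12 germ cell and placental genes, with color for the group and circles, squares and triangles for replicates 1, 2 and 3. In each gene the 3 K238R-labelled values lie above the 3 WT values, by the least in Prl3b1 and Rhox13, while ET and K412R are spread more widely. The genes were picked by calls, low p-values or the study's text, so this separation is not independent evidence.

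Placental genes had the highest median of the 32 lists. Of 31 trophoblast genes, 22 were tested, 13 were 2-fold higher and none lower, and the median log2 fold change was 2.70, with the lowest median, 1.93, without replicate 1 of the K238R-labelled libraries. The 2-fold higher members other than Tfap2c were below 1 CPM on average in WT, and a gene of that kind could pass the filter on low counts only through other groups, so the count describes the genes that passed and the 9 others were not tested. The summed level of the list, most of it from Peg10, a gene named after its values were seen, was 755, 801 and 758 CPM in WT and 1035, 830 and 970 CPM in the K238R-labelled libraries. Ctsj, a placental cathepsin, stood at 0.334, 0.0567 and 0.238 CPM in WT and at 4.29, 0.895 and 2.21 CPM in the K238R-labelled libraries (3.51, standard error 0.69, adjusted p = 0.0684). Rhox6, a reproductive homeobox gene of the X chromosome, stood at 0.612, 0.113 and 0.179 CPM against 9.06, 3.41 and 4.0 CPM (4.15, standard error 0.92, adjusted p = 0.0887). Hand1, which drives trophoblast giant cell and heart development, stood at 0.723, 0 and 0.0596 CPM against 10.2, 1.45 and 2.21 CPM (4.09, adjusted p = 0.104). Replicate 1 of the K238R-labelled libraries was the highest in all 3 genes. Prl3d1, placental lactogen I, had 0 counts in WT and 61 in the K238R-labelled libraries, at least 19.7-fold higher by the floor of 3 counts over the group. Of 25 listed prolactin-family genes, 8 passed the filter on low counts, and near-identical members of this family can share reads.

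Among the autosomes and the X, the share of genes higher by the 2-fold criterion was highest on the X. Of 665 X-linked genes tested, 47 (7.07%) were higher and 26 (3.91%) lower, so the X held 15.3% of all higher genes but 3.98% of all lower ones, and its median log2 fold change was 0.0036. The higher X-linked genes, named here after their values were seen, included Rhox and Xlr genes, which are germ cell and lymphoid genes in repeated clusters, where copies can share reads. Only 6 of 34 listed Rhox genes passed the filter on low counts, which a gene near 0 in WT passes through the groups where it is high, and 9 of 10 Xlr genes passed it, 6 of them 2-fold higher. Rhox5 stood at 1.89, 0.454 and 0.834 CPM in WT and at 10.6, 4.75 and 4.42 CPM in the K238R-labelled libraries (log2 fold change 2.63, adjusted p = 0.133). Rhox13 stood at 7.01, 5.33 and 6.49 CPM against 10.6, 19.9 and 19.4 CPM (1.40, adjusted p = 0.0689). Xlr3b stood at 10.5, 6.92 and 9.06 CPM against 16.1, 28.8 and 21.6 CPM (1.33, adjusted p = 0.129). Chromosome 13, which carries the prolactin and placental cathepsin clusters, had 2.94% of its 714 genes higher and 2.10% lower. Without WT replicate 1, 57 X-linked genes and 41 genes of chromosome 13 were higher.

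**Figure D4:**
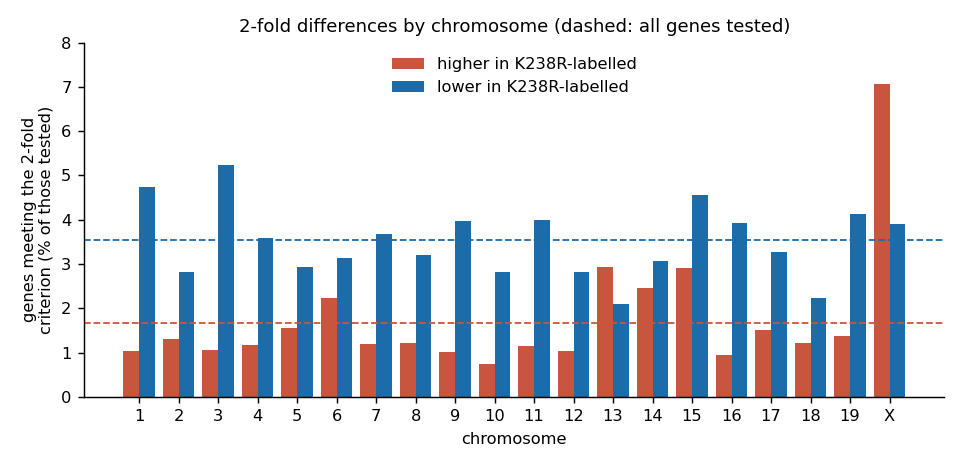
Bars give the share of tested genes on each autosome and the X that met the 2-fold criterion, red for higher and blue for lower in the K238R-labelled libraries, and dashed lines give the shares over all genes tested, 1.67% and 3.55%. The X has the highest share of higher genes, 7.07%, followed by chromosomes 13 and 15.

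Genes of the ventral midline and of early axial tissue were also higher. In the list of floor plate and choroid plexus, 30 genes were tested, 2 rose at the adjusted threshold, 11 were 2-fold higher and 3 lower, and the median was 0.76. Besides Folr1 and Ferd3l, Corin, a serine protease that marks floor plate, stood at 73.0, 51.0 and 30.4 CPM in WT and at 176, 109 and 170 CPM (1.56, standard error 0.31, adjusted p = 0.0684). Corin passed the adjusted threshold without WT replicate 1 (1.90, adjusted p = 0.0441). Shh, the morphogen of notochord and floor plate, stood at 45.1, 25.7 and 16.4 CPM against 126, 69.9 and 99.8 CPM (1.76, adjusted p = 0.104), and Foxa2, a transcription factor of the same tissue and of endoderm, differed by 1.24 (adjusted p = 0.104). Of 24 genes of the gastrulation list, 9 were 2-fold higher and none lower, with a median of 0.71 that became 1.12 without WT replicate 1. Cer1, a secreted antagonist of Nodal, stood at 1.83, 0.907 and 0.298 CPM against 4.61, 3.24 and 3.58 CPM (1.89, adjusted p = 0.0974). Cer1 also passed the adjusted threshold without WT replicate 1 (2.64, adjusted p = 0.0441). Among 35 neural progenitor genes the median was 0.38, with 1 gene (2.86%) 2-fold higher, against 1.67% of all genes tested. It was Nkx6-1, a ventral progenitor factor (1.23, adjusted p = 0.112).

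Of 32 Hox genes tested, 10 were 2-fold higher and 1 lower, and the median was 0.63, but it was 0.05 without replicate 2 of the K238R-labelled libraries and 0.29 without WT replicate 2. Hoxc4 stood at 6.78, 5.56 and 8.04 CPM in WT and at 29.9, 34.2 and 48.1 CPM (2.46, adjusted p = 0.108), and Hoxa4 and Hoxc5 differed by 2.00 and 2.35. Hoxc8, which patterns the thorax, went the other way, from 4.62, 6.35 and 7.63 CPM to 0.742, 2.52 and 1.58 CPM (-1.94, adjusted p = 0.0999). Prph, an intermediate filament of peripheral and motor neurons, stood at 13.7, 18.6 and 18.8 CPM against 63.8, 42.9 and 88.0 CPM (1.93, adjusted p = 0.0931), and Chat, the enzyme of acetylcholine synthesis, differed by 1.82 (adjusted p = 0.147). The wider list of neurons and synapses had a median of -0.34. Of its 31 tested genes, 1 (3.23%) was 2-fold higher and 1 (3.23%) lower, against 1.67% and 3.55% of all genes tested. The median was -0.20 without replicate 1 of the K238R-labelled libraries and -0.17 without WT replicate 3.

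Pluripotency genes depended on WT replicate 1. Over 30 tested genes the median was 0.80, with 3 genes 2-fold higher and none lower. Without WT replicate 1 the median was 2.44 and 21 were 2-fold higher, and without WT replicates 2 and 3 it was 0.45 and 0.39. Pou5f1, the core factor Oct4, stood at 24.2 CPM in WT replicate 1, at 2.49 and 1.01 CPM in the other WT libraries and at 21.3, 18.3 and 13.0 CPM in the K238R-labelled libraries (log2 fold change 0.92, adjusted p = 0.537), and was named after its values were seen. Fgf5, a marker of primed pluripotency, stood at 3.0, 0.680 and 0.894 CPM against 5.14, 3.08 and 4.32 CPM (1.44, adjusted p = 0.17). All 42 mitosis genes were above 0, with a median of 0.57 and none past 2-fold. The median was 0.88 with 9 genes 2-fold higher without WT replicate 1, and 0.30 without replicate 1 of the K238R-labelled libraries, and 50.1% of all genes tested were above 0. Mki67, the proliferation antigen, stood at 295, 235 and 206 CPM in WT against 510, 295 and 375 CPM (0.68, adjusted p = 0.231), so that WT replicate 1 lay just above the lowest K238R-labelled library.

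Skeletal muscle genes had the lowest median, -1.60 over 36 tested genes, of which 9 were 2-fold lower and none higher. Its summed level was 825, 6309 and 5603 CPM in WT and 2036, 2233 and 89.9 CPM in the K238R-labelled libraries, so WT replicate 1 lay below 2 of the 3 K238R-labelled libraries. Myh8, the perinatal myosin heavy chain, stood at 149, 1424 and 248 CPM in WT and at 12.6, 148 and 12.5 CPM (-3.40, standard error 1.30, adjusted p = 0.224), and Myog, the differentiation factor myogenin, at 3.39, 17.9 and 14.9 CPM against 1.17, 6.21 and 0.211 CPM (-2.26, adjusted p = 0.27). No muscle gene passed the adjusted threshold. Without WT replicate 1, 20 were 2-fold lower, and without replicate 3 of the K238R-labelled libraries, the one with the lowest sum, none were.

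Genes of motile cilia and of keratinocytes were lower. In the motile cilium list, 15 of 41 tested genes were 2-fold lower and none higher, with a median of -0.76 that was -0.49 without replicate 1 of the K238R-labelled libraries. Dnah5, an outer arm dynein heavy chain needed for ciliary beating, stood at 35.0, 39.6 and 39.4 CPM in WT and at 8.21, 11.2 and 13.3 CPM (-1.80, standard error 0.34, adjusted p = 0.0661), and Sntn, a protein of the ciliary tip, differed by -2.62 (adjusted p = 0.0999). Dnah11, another dynein heavy chain of the list, rose by 0.64 instead, from 19.7, 20.0 and 18.8 CPM to 28.5, 32.3 and 30.4 CPM (adjusted p = 0.0432). Foxj1, the factor that starts the motile cilium program and named after its values were seen, had a log2 fold change of 0.0059 (adjusted p = 0.988). Of 23 keratinocyte genes tested, 7 were 2-fold lower and none higher, with a median of -0.87, and without replicate 3 of the K238R-labelled libraries 4 were 2-fold lower. Of 20 intestinal epithelium genes tested, 5 were 2-fold lower, 9 were above 0 and the median was -0.20. Krt6a, a keratin of stratified epithelium, stood at 11.5, 10.5 and 14.4 CPM against 4.61, 4.42 and 2.84 CPM (-1.62, adjusted p = 0.0684), and Sprr2a1, a cornified envelope gene, had 83 counts in WT and 0 in the K238R-labelled libraries, at least 28.6-fold lower by the same floor. In glia, Pmp22 and Mal, both of myelin, differed by -0.81 and -1.82 (adjusted p = 0.0684 and 0.0887), and the list median was -0.35 over 27 genes, -0.58 without replicate 2 of the K238R-labelled libraries and -0.23 without WT replicate 2.

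Markers of host and blood cells are given beside these results. Over all genes tested, 50.1% were above 0 and 3.55% were 2-fold lower. Of 30 endothelial genes tested, 26 were below 0 and 5 (16.7%) were 2-fold lower. The summed level of the endothelial list ran from 657 to 708 CPM in WT and from 502 to 578 CPM in the K238R-labelled libraries. Of 28 macrophage and leukocyte genes, 26 were below 0 and 1 was 2-fold lower, a share near the 3.55% of all genes tested, at 424 to 627 CPM against 333 to 439 CPM. These ranges overlapped, and the list median of -0.36 was -0.24 without WT replicate 1. Ptprc, the pan-leukocyte antigen CD45, stood at 12.3, 8.28 and 7.39 CPM against 5.88, 5.42 and 5.11 CPM (-0.77, adjusted p = 0.0999). Globin and erythroid genes summed to between 1298 and 1662 CPM in WT and between 668 and 1205 CPM in the K238R-labelled libraries, with a median of -0.76 over 15 tested genes that was -0.42 without WT replicate 3 and -0.46 without replicate 3 of the K238R-labelled libraries. The part of host and blood cells in the lower genes was not tested. Apart from these markers, the mitochondrially encoded genes had a median of -0.31, with 13 of 13 below 0.

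**Figure D5:**
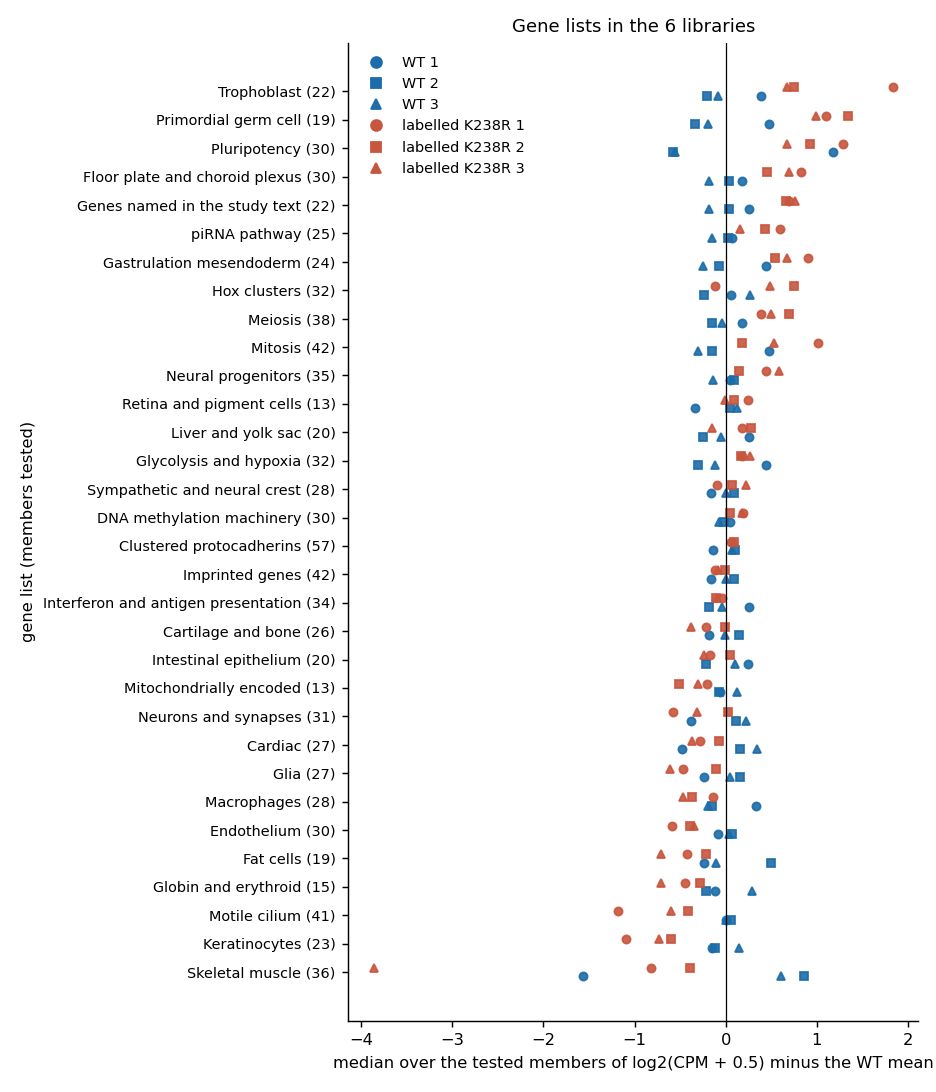
For each gene list, points give the median over its tested members of log2(CPM + 0.5) minus the WT mean in each of the 6 libraries, blue for WT and red for K238R-labelled, with the number of members tested in parentheses. For trophoblast and primordial germ cell genes the 3 K238R-labelled medians lie above the 3 WT medians, while WT replicate 1 lies within the range of the K238R-labelled libraries for pluripotency and skeletal muscle genes.

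Imprinted genes had a median of -0.05 over 42 tested genes. Of these, 3 (7.14%) were 2-fold higher and 1 (2.38%) lower, against 1.67% and 3.55% of all genes tested. The pair at the H19 and Igf2 locus differed in opposite directions. H19, a maternally expressed noncoding RNA, stood at 96.9, 51.0 and 142 CPM in WT and at 209.0, 254.6 and 238.1 CPM (1.28, standard error 0.30, adjusted p = 0.0999). Igf2, a paternally expressed growth factor, stood at 1373, 2931 and 1960 CPM in WT and at 923, 1116 and 818 CPM (-1.13, standard error 0.29, adjusted p = 0.106). The groups did not overlap in either gene, and neither passed the threshold. The median of the clustered protocadherins, 57 tested, was 0.07 and that of interferon genes, 34 tested, was -0.08, with none 2-fold different in either list.

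A list was made of 23 genes that the study names for germline, neural, cardiac, pluripotency and imprinted functions, of which 22 were tested. It does not hold every gene the study names for these functions, and Dazl, Prdm14 and Esrrb are among those left out. The study names part of them for these same tumors, so the list is not independent evidence of a direction. Folr1 and Dnah11 rose at the adjusted threshold, 8 were 2-fold higher, none was 2-fold lower, and the median was 0.76. Sox2, a factor of neural progenitors, stood at 142, 110 and 102 CPM in WT and at 167, 134 and 177 CPM (0.44, adjusted p = 0.199). The neuronal genes Rbfox3 and Tubb3 differed by -0.35 and -0.03 (adjusted p = 0.518 and 0.931). The cardiac genes Tnni3 and Bmp4 differed by -0.04 and 0.17 (adjusted p = 0.945 and 0.582), and Tnnt2, cardiac troponin T, stood at 9.45, 39.0 and 29.6 CPM in WT and at 3.71, 16.4 and 1.05 CPM (-1.89, adjusted p = 0.325). Over 27 cardiac genes the median was -0.35, -0.20 without replicate 1 of the K238R-labelled libraries and -0.16 without WT replicate 3. Of these 27 genes, 3 (11.1%) were 2-fold higher and 1 (3.70%) was lower, against 1.67% and 3.55% of all genes tested. Without WT replicate 1, 4 were 2-fold higher and 4 lower. Tbx20, a heart factor also used in motor neurons, differed by 2.51 and Hand1 by 4.09, and Mef2c, a myogenic factor, by -1.34 (adjusted p = 0.165, 0.104 and 0.136).

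The levels in ET and K412R are given beside these, and each comparison shares libraries with the others. Postn averaged 197 ± 21.1 CPM in ET and 179 ± 9.66 CPM in K412R, between WT and the K238R-labelled libraries. Cnmd averaged 2.87 ± 0.29 CPM in ET and 3.65 ± 0.40 CPM in K412R, beside the 2.95 ± 0.44 CPM of the K238R-labelled libraries. Zfp36l3 averaged 2.85 ± 1.55 CPM in ET and 2.75 ± 0.92 CPM in K412R, against 6.06 ± 2.02 CPM in the K238R-labelled libraries. Between the K238R-labelled libraries and ET, the log2 fold change was -0.80 for Postn (adjusted p = 0.19), 0.04 for Cnmd (adjusted p = 0.966) and 1.09 for Zfp36l3 (adjusted p = 0.806).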

How the data were processed

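RNA-seq libraries of 12 teratomas were used, 3 per group, and groups were taken from the labels. Per the study's methods and processing notes, the authors used fastp to trim reads, STAR for mapping and Salmon for quantification, on GRCm39, with the versions of these tools and the use of molecular identifiers not given in the sources used here, of which the source data were held only in part. The authors deposited an estimated count per gene and library, without normalization, as whole numbers. Nothing in the labels says more of the replicates than 1 tumor each.

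Counts were scaled with the TMM method, and edgeR 4.0.16 (R 4.3.3) took all 12 libraries, each group having 1 mean, a robust estimate of the spread and Benjamini-Hochberg adjustment over the 18405 genes that passed filterByExpr. The robust option was chosen after counts of calls had been seen. The fit was tested on simulated data with the same spread for every gene and no outlying library. That test could not show how the fit handles a library such as WT replicate 1. The study used DESeq2, and version 1.42.0 was run as an alternative, beside DESeq2-type size factors, no filter on low counts, a fit of the 6 libraries alone, the replicate number as a block and each library left out. CPM were scaled to the TMM library sizes, and log2 levels used CPM + 0.5. Chromosomes were taken from the annotation tables by gene symbol.

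Named genes were Dnmt3l and the 15 largest rises and falls among called genes of at least 1 CPM in either group. The called members and the 4 lowest p-values of each of 32 gene lists (980 of 983 symbols matched) were added. The tested genes of the list drawn from the study's text were also named, and that list does not hold every gene the study names. The genes, lists and tests were chosen with earlier results of these data known. Genes picked by their p-values tend to have groups that do not overlap, so such separation is not independent evidence. Counting intervals and floors cover counting error only, at 95% and 3 counts. Replicates of the 2 groups differed by more than counting noise (chi-square per degree of freedom 10.5 to 31.0), so none was counted as a duplicate.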

Additional observations from a re-analysis of the deposited data

How the results depend on the processing

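The fall of Dnmt3l kept its direction and its call in all 18 alternatives, with log2 fold changes between -7.88 and -7.02 as libraries were left out. The 41 adjusted calls became 786 with DESeq2, 385 in a fit of the 6 libraries alone and 69 without the filter on low counts, which also tests more genes, and the cause of the other changes was not tested. They stayed near 41 with other size factors (38) and without the robust estimate of the spread (32), an alternative chosen after seeing the data. Leaving out 1 library gave between 2 and 812 calls. The 962 genes of the 2-fold criterion stayed within 1.5 times that number in every alternative, between 811 and 1388 as libraries were left out, and without the filter on low counts they were 1415 (490 higher and 925 lower). Among 2824 values of the other named genes, 2396 kept their side of the threshold, 428 changed it and none turned while called. The medians of the Imprinted genes and of the Interferon and antigen presentation lists, both close to 0, changed sign in some alternatives, and the Trophoblast median was 1.79 in the fit of the 6 libraries alone.

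Replicate numbers are shared between the groups, and the deviations of same-numbered libraries gave a mixed picture. Their correlations were 0.135, 0.200 and -0.184, so replicates 1 and 2 were above the 0.1 set for a pair and replicate 3 was not. Of the 6 libraries, 2 correlated best with their own number in the other group. With the replicate block, 203 genes were called (79 higher and 124 lower), and all 41 genes were among them. At the depth of these libraries, genes near 1 CPM rest on few counts, which limits the germ cell and placental genes most.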
